A study of Homo sapiens with 2 samples.

Results

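The 36 genes described here are targets of the hypoxia-inducible factors (HIFs) and enzymes of glycolysis, taken by symbol from the 36601 gene rows of 1 joint RNA and chromatin accessibility experiment, together with the 110 of 187920 accessibility peaks that lie within 2 kb of the coordinates their rows carry. All 36 had at least 20 unique molecules (UMIs, transcripts counted once) over the barcodes used, as did 19599 genes in all, and 95 of the 110 peaks had at least 100 counts. The row coordinates mark start sites rather than gene bodies: they span under 2300 bases for 29 of the 36 genes and 193510 bases at PGK1.

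Human lung adenocarcinoma lines A549, HCC827, H838, H1975 and H2228 were each grown alone in RPMI medium with serum, dissociated, frozen and then mixed equally. Droplets were captured once, and the 80% fraction gave 1 RNA library and 1 ATAC library, in which each barcode carries both readouts. No label gives the line of a barcode or any low-oxygen treatment, so what follows compares lines at the oxygen of ordinary culture. With 1 culture a line there is no replicate and no test of a difference between lines. Intervals are exact Poisson 95% intervals of summed counts and cover counting error only. HCC827 carries an amplified mutant EGFR, as background.

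Barcodes were clustered by RNA and by accessibility separately, without the 36 genes, 83 related genes and 386 peaks near them, and a barcode was used where both clusterings placed it in the same line. This held for 2427 of 2741 barcodes (88.5%). Of these, 752 were A549-like (ALDH1A1, CYP24A1, FGB and other markers, 7 of 7 highest there) and 430 HCC827-like (EGFR and its neighbours, 5 of 6 highest there, CEACAM6 being the exception). The other 3 clusters could not be tied to a line by name and are called by a leading gene: the S100A9 cluster with 444 barcodes, the SLC30A8 cluster with 583 and the DHRS2 cluster with 218. Summed RNA ranged between 3109637 UMIs in the DHRS2 cluster and 8320194 UMIs in the S100A9 cluster. Summed peak counts ranged between 7338263 in the DHRS2 cluster and 22260599 in the A549-like line. The 314 barcodes that the clusterings placed in different lines included 191 with a median of 56169 UMIs and markers of several lines at once (S100A9 at 152 and DHRS2 at 108 CPM, counts scaled to a line total of 1000000), and they are left out. Markers of other cell types were checked as lists. The 6 immune markers summed to 4.93 to 18.0 CPM a line, with PTPRC at 7.57 CPM in the S100A9 cluster, CSF1R at 9.33 CPM in the DHRS2 cluster and CD3E at most at 0.547 CPM. The 5 endothelial markers summed to 95.8 CPM in the S100A9 cluster, of which PECAM1 made 94.1, and to 3.83 to 22.8 CPM in the other lines. The 4 fibroblast markers summed to 122 CPM in the S100A9 cluster (COL1A1 at 119) and 118 CPM in the DHRS2 cluster (COL1A1 at 63.0, COL1A2 at 54.7), and to 5.74 to 9.47 CPM in the other lines. DCN, HBA1, HBA2 and HBB had no UMI, and the part of other cell types in the results was not tested.

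HIF transcription factors pair an oxygen-sensitive alpha subunit (HIF1A or EPAS1) with ARNT and bind DNA at a short core that reads ACGTG or GCGTG. In normal oxygen the EGLN prolyl hydroxylases mark the alpha subunit for VHL, which sends it for destruction. When it is stable it raises genes for glucose uptake, glycolysis, lactate and proton export, vessel growth, collagen modification and removal of mitochondria, and lung tumours can carry parts of this programme in normal oxygen as well.

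Promoter sequences of 32 of the 36 genes were found among RefSeq sequences (GRCh38.p14), and VEGFA, SLC2A3, NDRG1 and BNIP3L were not. The 250 bases before the start are shown for 7 genes chosen after their values were seen: CA9, CA12, HK2, PFKFB4 and GPI for differences in RNA or at the start peak, EGLN1 as an oxygen sensor, and LDHA as a well-known HIF target with several matches. Here ACGTG and GCGTG are in capitals on either strand (CACGT and CACGC on the reverse).
CA9 (chr9:35673678-35673927, plus strand): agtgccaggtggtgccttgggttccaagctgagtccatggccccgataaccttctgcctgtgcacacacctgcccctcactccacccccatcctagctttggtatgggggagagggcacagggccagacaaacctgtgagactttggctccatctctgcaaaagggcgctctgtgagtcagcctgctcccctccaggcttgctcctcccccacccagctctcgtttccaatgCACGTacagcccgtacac
CA12 (chr15:63381847-63382096, minus strand): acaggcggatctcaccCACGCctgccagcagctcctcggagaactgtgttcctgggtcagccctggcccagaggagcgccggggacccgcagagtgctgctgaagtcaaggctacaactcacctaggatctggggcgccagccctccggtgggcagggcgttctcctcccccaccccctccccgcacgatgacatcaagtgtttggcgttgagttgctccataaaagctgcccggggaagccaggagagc
HK2 (chr2:74834920-74835169, plus strand): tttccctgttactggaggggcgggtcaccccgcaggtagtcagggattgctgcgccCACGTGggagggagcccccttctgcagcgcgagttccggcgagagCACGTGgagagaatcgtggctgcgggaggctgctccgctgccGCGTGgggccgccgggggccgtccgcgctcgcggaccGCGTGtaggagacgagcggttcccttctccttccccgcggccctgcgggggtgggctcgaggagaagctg
LDHA (chr11:18394313-18394562, plus strand): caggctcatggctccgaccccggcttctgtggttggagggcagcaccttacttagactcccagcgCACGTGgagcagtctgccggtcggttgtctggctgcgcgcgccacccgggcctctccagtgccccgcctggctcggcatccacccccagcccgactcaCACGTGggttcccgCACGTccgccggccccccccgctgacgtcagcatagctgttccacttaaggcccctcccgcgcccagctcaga
EGLN1 (chr1:231422288-231422537, minus strand): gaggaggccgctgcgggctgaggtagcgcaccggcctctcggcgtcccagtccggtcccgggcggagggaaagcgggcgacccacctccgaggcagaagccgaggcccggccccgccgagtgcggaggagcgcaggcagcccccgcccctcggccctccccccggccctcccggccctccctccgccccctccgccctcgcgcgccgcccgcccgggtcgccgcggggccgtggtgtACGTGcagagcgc
PFKFB4 (chr3:48556804-48557053, minus strand): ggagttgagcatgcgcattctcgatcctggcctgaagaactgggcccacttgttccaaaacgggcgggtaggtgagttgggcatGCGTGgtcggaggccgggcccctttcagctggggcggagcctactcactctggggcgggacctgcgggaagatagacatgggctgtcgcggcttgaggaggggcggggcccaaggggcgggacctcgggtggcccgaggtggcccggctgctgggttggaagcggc
GPI (chr19:34364742-34364991, plus strand): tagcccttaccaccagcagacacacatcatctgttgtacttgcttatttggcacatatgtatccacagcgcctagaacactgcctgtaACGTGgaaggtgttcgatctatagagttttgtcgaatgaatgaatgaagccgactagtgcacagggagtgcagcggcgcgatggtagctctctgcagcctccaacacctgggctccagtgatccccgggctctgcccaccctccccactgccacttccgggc
ACGTG on either strand stood in at least 1 such window for 20 of 32 members (62.5%) and for 21.7% of the 27305 genes with a window. Members had 59 windows between them, and by window the shares were 39.0% among members and 18.5% among all 35116 windows. GCGTG was in a window for 16 of 32 members and for 36.2% of all genes, and by window in 32.2% of member windows and 32.2% of all windows. The matches are letters in a window, and binding was not measured.

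The S100A9 cluster held the highest level of 17 of the 36 genes and the lowest of none, while the HCC827-like line held the lowest of 20 and the highest of none. Over all measured genes the S100A9 cluster was highest for 18.8% and the HCC827-like line lowest for 22.4%. A gene is called higher or lower in a line where its level (CPM of all UMIs of the line) is at least 2-fold away from the mean of the other 4 lines after adding 1 CPM, that is at a log2 ratio of 1 or more or -1 or less. In the S100A9 cluster 11 members were higher and 2 lower, where 9.78% of all genes were called higher and 20.1% lower. In the HCC827-like line none was higher and 20 were lower, where 6.82% of all genes were higher and 19.2% lower. In the A549-like line 4 were higher and 14 lower, beside 11.7% and 17.6% of all genes. The SLC30A8 cluster had 2 higher and 6 lower, beside 12.7% and 20.9% of all genes, and the DHRS2 cluster 4 higher and 2 lower, beside 7.47% and 16.8%. The median log2 ratio of the members was 0.60 in the S100A9 cluster (-0.27 over all genes), -1.11 in the HCC827-like line (-0.33), -0.64 in the A549-like line (-0.04), -0.11 in the SLC30A8 cluster (-0.05) and 0.05 in the DHRS2 cluster (-0.15). The ratios share their comparison lines, so a gene that is very high in 1 line is pushed down in the others. When barcodes were assigned by accessibility alone, which adds the barcodes of mixed markers, the A549-like line had 1 lower member in place of 14. The share of all genes called under that assignment was not computed, so this count has no background beside it.

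**Figure D1:**
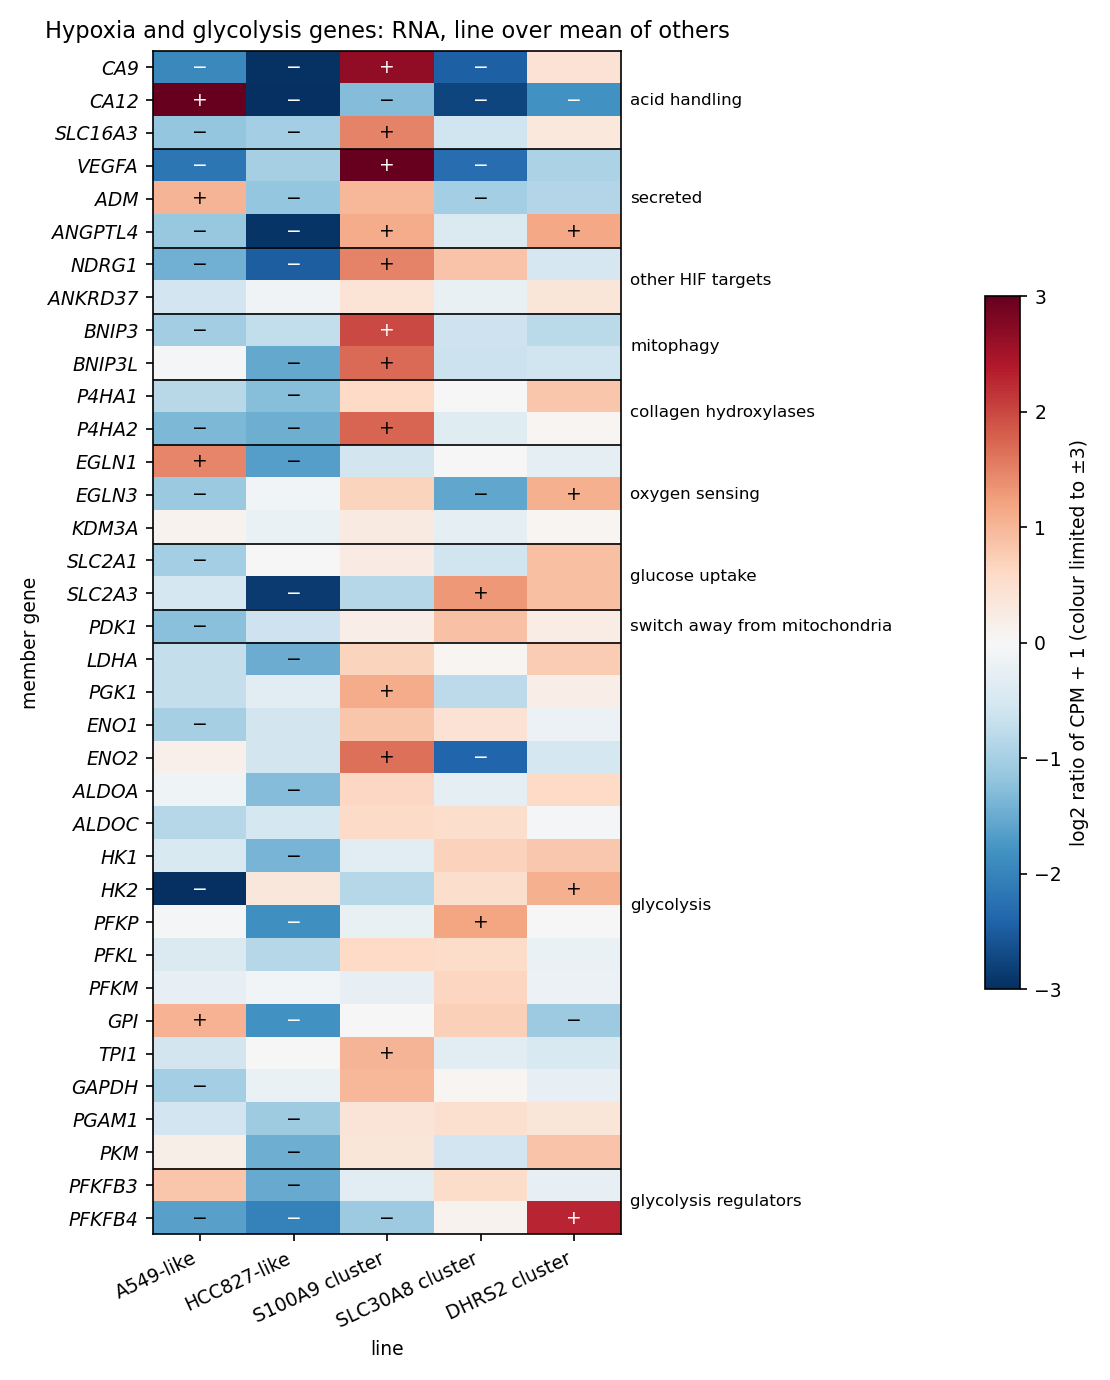
Log2 ratio of RNA level (CPM + 1) of a line over the mean of the other 4 lines, for the 36 genes grouped by role, with + and − marking genes past 2-fold. The HCC827-like column carries 20 minus signs and no plus sign, and the S100A9 column 11 plus signs.

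**Figure D2:**
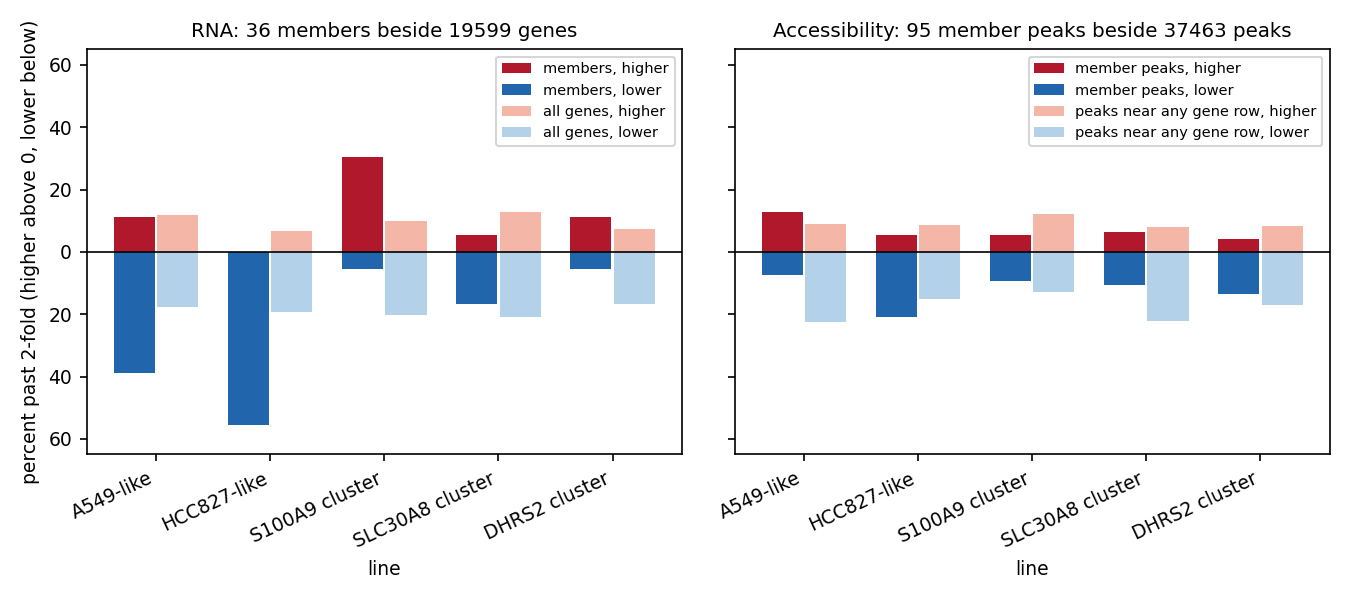
Percent of features past 2-fold in each line, higher above 0 and lower below, for members (dark bars) and the background (pale bars), for RNA on the left and accessibility on the right. The RNA bars of members exceed the pale ones for lower genes in the HCC827-like and A549-like lines and for higher genes in the S100A9 cluster, and the accessibility bars show no such excess in the S100A9 cluster.

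Membrane carbonic anhydrases, which turn carbon dioxide and water into bicarbonate and protons at the cell surface, differed most of all members. CA12 stood at 732 CPM (interval 708 to 757) in A549-like cells, against 83.1 CPM in the S100A9 cluster, 59.8 in the DHRS2 cluster, 31.6 in the SLC30A8 cluster and 5.55 (3.84 to 7.76) in HCC827-like cells. Its log2 ratio was 3.99 in the A549-like line and -5.12 in the HCC827-like line. The calls of CA12 as lower in the S100A9 and DHRS2 clusters come from the A549-like level in their comparison mean: against the median of the other lines their log2 ratios were 0.85 and 0.06. CA9, the classical hypoxia marker of the same family, had another order. It stood at 51.2 CPM (46.5 to 56.3) in the S100A9 cluster, against 20.6 in the DHRS2 cluster, 4.25 in A549-like cells, 2.74 in the SLC30A8 cluster and 1.63 in HCC827-like cells. The intervals of the 2 highest lines lie apart, and those of neighbours among the 3 low lines overlap. CA9 molecules were seen in 41.7% of barcodes of the S100A9 cluster and in 1.63% to 2.66% of those of the 3 low lines. After thinning each barcode to 4000 UMIs the share was 16.6% in the S100A9 cluster, 7.47% in the DHRS2 cluster and at most 2.02% in the 3 low lines, a level that free RNA in the droplets could also give. SLC16A3, which exports lactate together with protons, was at 188 CPM (179 to 198) in the S100A9 cluster, against 108 in the DHRS2 cluster, 64.2 in the SLC30A8 cluster, 49.3 in HCC827-like and 45.1 in A549-like cells.

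**Figure D3:**
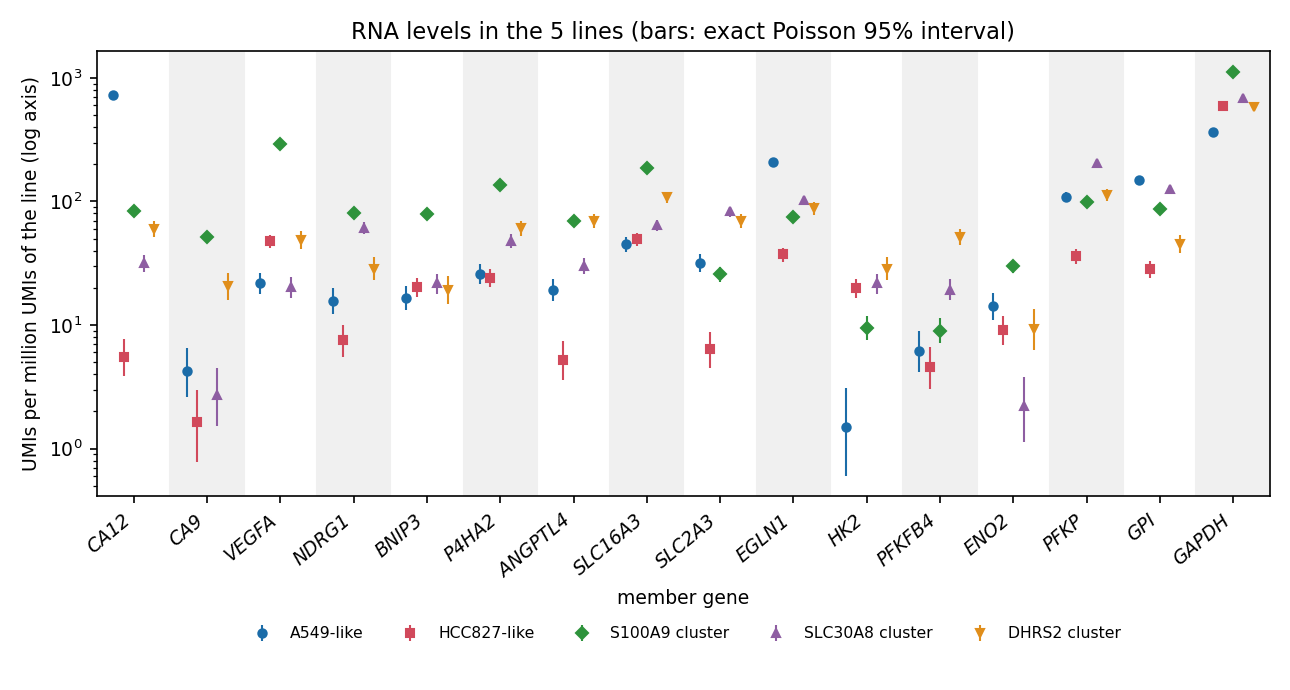
RNA level (CPM, log axis) of 16 members in the 5 lines, with exact Poisson 95% intervals as bars. CA12 ranges between 5.55 CPM in HCC827-like cells and 732 CPM in A549-like cells, and HK2 is at 1.49 CPM in A549-like cells and at 9.49 CPM or more in the other lines.

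Among secreted factors, VEGFA, the main growth factor for blood vessels, set the S100A9 cluster apart. It stood at 291 CPM (279 to 302) there, against 48.9 in the DHRS2 cluster, 47.7 in HCC827-like, 21.9 in A549-like cells and 20.2 in the SLC30A8 cluster, a log2 ratio of 3.03. The 4 lower lines form 2 pairs whose intervals overlap within the pair. ANGPTL4, an inhibitor of lipoprotein lipase, was at 69.8 CPM in the DHRS2 cluster and 69.0 CPM in the S100A9 cluster, which their intervals do not separate, against 30.1 in the SLC30A8 cluster, 19.4 in A549-like and 5.22 in HCC827-like cells. ADM, a vasodilator peptide, had low counts and another order. It was at 17.2 CPM in A549-like cells and 16.9 CPM in the S100A9 cluster, against 5.47 in the DHRS2 cluster, 4.93 in the SLC30A8 cluster and 4.41 in HCC827-like cells. Its call in the A549-like line, at a log2 ratio of 1.03, dropped below 2-fold in 7 of the alternative settings tried.

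NDRG1, a stress-response protein used as a hypoxia marker, was at 80.3 CPM in the S100A9 cluster, against 60.7 in the SLC30A8 cluster, 28.6 in the DHRS2 cluster, 15.7 in A549-like and 7.51 in HCC827-like cells. No neighbours in this order had overlapping intervals. The mitophagy receptors BNIP3 and BNIP3L, which mark mitochondria for removal, were both highest in the S100A9 cluster. BNIP3 was at 79.4 CPM there (73.5 to 85.7), against 21.7 in the SLC30A8 cluster, 20.2 in HCC827-like, 19.3 in the DHRS2 cluster and 16.6 in A549-like cells, levels whose neighbours overlap. BNIP3L was at 178 CPM in the S100A9 cluster, against 75.9 in A549-like cells, 55.3 in the DHRS2 cluster, 54.4 in the SLC30A8 cluster and 30.7 in HCC827-like cells. Of the collagen prolyl hydroxylases, P4HA2 was at 137 CPM in the S100A9 cluster, against 60.8 in the DHRS2 cluster, 48.0 in the SLC30A8 cluster, 25.95 in A549-like and 24.0 in HCC827-like cells. P4HA1 was called in the HCC827-like line only as lower, at 74.6 CPM, against 246 in the DHRS2 cluster, 218 in the S100A9 cluster, 161 in the SLC30A8 cluster and 97.4 in A549-like cells.

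The prolyl hydroxylases among the members had different leaders. EGLN1, the main hydroxylase that restrains HIF in normal oxygen, was at 210 CPM (197 to 224) in A549-like cells, against 103 in the SLC30A8 cluster, 88.4 in the DHRS2 cluster, 74.4 in the S100A9 cluster and 37.2 in HCC827-like cells. EGLN3, a sister enzyme that is itself induced by HIF, was at 44.1 CPM in the DHRS2 cluster and 36.2 CPM in the S100A9 cluster, against 24.0 in HCC827-like, 12.6 in A549-like cells and 9.30 in the SLC30A8 cluster. The log2 ratio of EGLN1 was 1.46 in the A549-like line, where that of EGLN3 was -1.12. KDM3A, a histone demethylase that HIF induces, was past 2-fold in no line and ranged between 41.8 and 56.7 CPM. Its fold of the highest over the lowest line, 1.35 after adding 1 CPM, was the smallest of the 36 genes.

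Glucose enters cells through SLC2A1 (GLUT1) and the high-affinity SLC2A3 (GLUT3), and the lines differed in which they carried. SLC2A3 was at 83.0 CPM in the SLC30A8 cluster and 69.5 CPM in the DHRS2 cluster, with overlapping intervals, against 31.9 in A549-like cells, 25.7 in the S100A9 cluster and 6.37 (4.53 to 8.70) in HCC827-like cells. SLC2A1 was at 24.5 CPM in A549-like cells, where it was called lower, against 73.0 in the DHRS2 cluster, 51.9 in the S100A9 cluster, 45.4 in HCC827-like cells and 31.7 in the SLC30A8 cluster. HCC827-like cells thus held the lowest SLC2A3 of the 5 lines, at a log2 ratio of -2.86, and an SLC2A1 level at the mean of the others, at 0.00.

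The hexokinases trap glucose in the cell by phosphorylating it. HK2, the inducible form, had 7 UMIs in all 752 A549-like barcodes, which is 1.49 CPM (0.599 to 3.07), against 28.6 in the DHRS2 cluster, 21.7 in the SLC30A8 cluster, 19.8 in HCC827-like cells and 9.49 in the S100A9 cluster. The log2 ratio was -3.07 in the A549-like line. HK1, the constitutive form, was at 20.2 CPM in HCC827-like cells, against 73.6 in the DHRS2 cluster, 69.9 in the SLC30A8 cluster, 40.1 in the S100A9 cluster and 36.8 in A549-like cells. A549-like cells were thus called lower for HK2 and HCC827-like cells for HK1. Within the 3 ranges of mitochondrial share described below, low to high, HK1 in HCC827-like cells had log2 ratios of -0.94, -0.71 and -1.46. HK2 in A549-like cells was past 2-fold in all 3.

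The kinase-phosphatases PFKFB3 and PFKFB4 make fructose-2,6-bisphosphate, the activator of phosphofructokinase. They had different leaders, and both were lowest in HCC827-like cells. PFKFB4 was at 51.8 CPM (44.1 to 60.4) in the DHRS2 cluster, against 19.3 in the SLC30A8 cluster, 9.01 in the S100A9 cluster, 6.17 in A549-like and 4.57 in HCC827-like cells, a log2 ratio of 2.29. PFKFB3 was at 29.4 CPM in HCC827-like cells, where it was called lower, against 115 in A549-like cells, 99.8 in the SLC30A8 cluster, 64.6 in the DHRS2 cluster and 61.3 in the S100A9 cluster. Its intervals in A549-like cells and the SLC30A8 cluster overlap. Among phosphofructokinases themselves, the platelet form PFKP was at 205 CPM (194 to 218) in the SLC30A8 cluster, against 113 in the DHRS2 cluster, 110 in A549-like cells, 98.9 in the S100A9 cluster and 35.9 (31.3 to 41.0) in HCC827-like cells. The liver and muscle forms PFKL and PFKM were past 2-fold in no line, at 10.8 to 25.8 CPM and 14.7 to 24.3 CPM.

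GPI, which converts glucose-6-phosphate to fructose-6-phosphate, was at 149 CPM in A549-like cells and 127 CPM in the SLC30A8 cluster, against 87.1 in the S100A9 cluster, 45.7 in the DHRS2 cluster and 28.2 in HCC827-like cells. ENO2, the neuronal enolase, was at 29.8 CPM in the S100A9 cluster, against 14.3 in A549-like cells, 9.33 in the DHRS2 cluster, 9.14 in HCC827-like cells and 2.19 (1.13 to 3.82) in the SLC30A8 cluster. ENO1, the common enolase, varied less: 209 CPM in A549-like cells, where it was called lower at a ratio just past 2-fold, against 583 in the S100A9 cluster, 478 in the SLC30A8 cluster, 341 in the DHRS2 cluster and 276 in HCC827-like cells. The SLC30A8 cluster thus had the lowest ENO2 and the second highest ENO1.

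Several core enzymes were highest in the S100A9 cluster by modest factors. GAPDH was at 1115 CPM there, a log2 ratio just short of 2-fold, against 687 in the SLC30A8 cluster, 594 in HCC827-like cells, 583 in the DHRS2 cluster and 364 in A549-like cells, where it was called lower. PGK1, the first enzyme of the pathway to make ATP, was at 251 CPM in the S100A9 cluster, against 157 in the DHRS2 cluster, 117 in HCC827-like, 93.6 in A549-like cells and 89.9 in the SLC30A8 cluster. TPI1 was at 203 CPM in the S100A9 cluster, against 120 in HCC827-like cells, 98.5 in the SLC30A8 cluster, 92.3 in the DHRS2 cluster and 86.8 in A549-like cells. Its log2 ratio was 1.02, and it dropped below 2-fold in 7 of the alternative settings tried. Reads of these enzymes can be split or lost among near-identical pseudogene copies in the genome, so their levels are uncertain.

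At the end of the pathway, PKM, the pyruvate kinase of most tumours, was at 111 CPM in HCC827-like cells, against 415 in the DHRS2 cluster, 325 in the S100A9 cluster, 295 in A549-like cells and 193 in the SLC30A8 cluster. LDHA, which turns pyruvate into lactate, was at 69.4 CPM in HCC827-like cells, against 253 in the DHRS2 cluster, 241 in the S100A9 cluster, 175 in the SLC30A8 cluster and 111 in A549-like cells. HCC827-like cells were called lower for both, at log2 ratios of -1.46 and -1.48. PGAM1 was also called lower there, at 29.9 CPM, against 73.2 in the SLC30A8 cluster, 69.8 in the S100A9 cluster, 69.5 in the DHRS2 cluster and 40.6 in A549-like cells. ALDOA was called lower there too but had 160 UMIs in all, with 2.12 CPM in HCC827-like cells and 4.74 to 8.41 CPM in the other lines, and overlapping intervals between neighbours. Its strongest accessibility peak (chr16:30065111-30066008) was open in every line, at 56.6 to 96.9 CPM of peak counts. A gene row that overlaps it, AC093512.1, had 15 UMIs. Whether ALDOA reads were lost in counting was not tested, so its level and its call are uncertain. PDK1, a pyruvate dehydrogenase kinase, was at 30.2 CPM in A549-like cells, where it was called lower. It was at 103 CPM in the SLC30A8 cluster, 73.6 in the DHRS2 cluster, 72.2 in the S100A9 cluster and 45.2 in HCC827-like cells. The remaining members, ALDOC with 50 UMIs and ANKRD37 with 144 UMIs, were past 2-fold in no line. In all, 31 of 36 members were past 2-fold in at least 1 line, beside 61.2% of all measured genes, in 65 of 180 gene and line pairs, beside 28.6% of all pairs. Calls near the threshold dropped below 2-fold in 6 or more alternative settings: SLC16A3 in HCC827-like cells in 9, ENO1 in A549-like cells in 8, HK2 in the DHRS2 cluster in 7, and PGAM1 in HCC827-like cells, PFKFB4 in the S100A9 cluster and GAPDH, GPI and SLC2A1 in A549-like cells in 6 each.

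The lines differed in their share of mitochondrial UMIs. The median share of mitochondrial UMIs was 0.425% in A549-like cells, 0.422% in the SLC30A8 cluster, 4.97% in the DHRS2 cluster, 8.74% in the S100A9 cluster and 13.8% in HCC827-like cells, and the median depth was 4460, 6949, 10047.5, 13031 and 11692 UMIs in the same order of lines. Every member was therefore compared again between lines within barcodes of under 2%, 2% to 10% and 10% to 20% mitochondrial UMIs. Of the 65 calls, 61 kept their sign in all 3 ranges and 40 were past 2-fold in all 3. The others changed sign at 2% to 10%. There ANGPTL4 in the DHRS2 cluster had a log2 ratio of -1.29 and PFKFB4 in A549-like cells 0.79. ADM had -0.03 in A549-like and 0.21 in HCC827-like cells. HCC827-like cells had 20, 19 and 20 lower members and no higher one in the 3 ranges, low to high. The S100A9 cluster had 11, 11 and 9 higher members, and the A549-like line 10, 9 and 9 lower ones. The share of all genes called within a range was not computed, so these counts have no background beside them. Some ranges held few barcodes: 47 of the S100A9 cluster under 2%, 34 A549-like ones at 2% to 10% and 55 at 10% to 20%. The DHRS2 cluster had 21 at 2% to 10%. VEGFA in the S100A9 cluster was at 460, 307 and 251 CPM in the 3 ranges, and CA12 in A549-like cells at 668, 614 and 953 CPM. HK2 in A549-like cells was at 1.51, 0 and 1.81 CPM, on 5, 0 and 2 UMIs, and the 0 has an interval up to 13.01 CPM. Calls past 2-fold in none of the 3 ranges were SLC2A1, SLC16A3, ENO1 and GAPDH as lower in A549-like cells and TPI1 as higher in the S100A9 cluster. GAPDH in A549-like cells was at 292 CPM in barcodes of under 2% and 571 and 529 CPM in the other ranges.

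**Figure D4:**
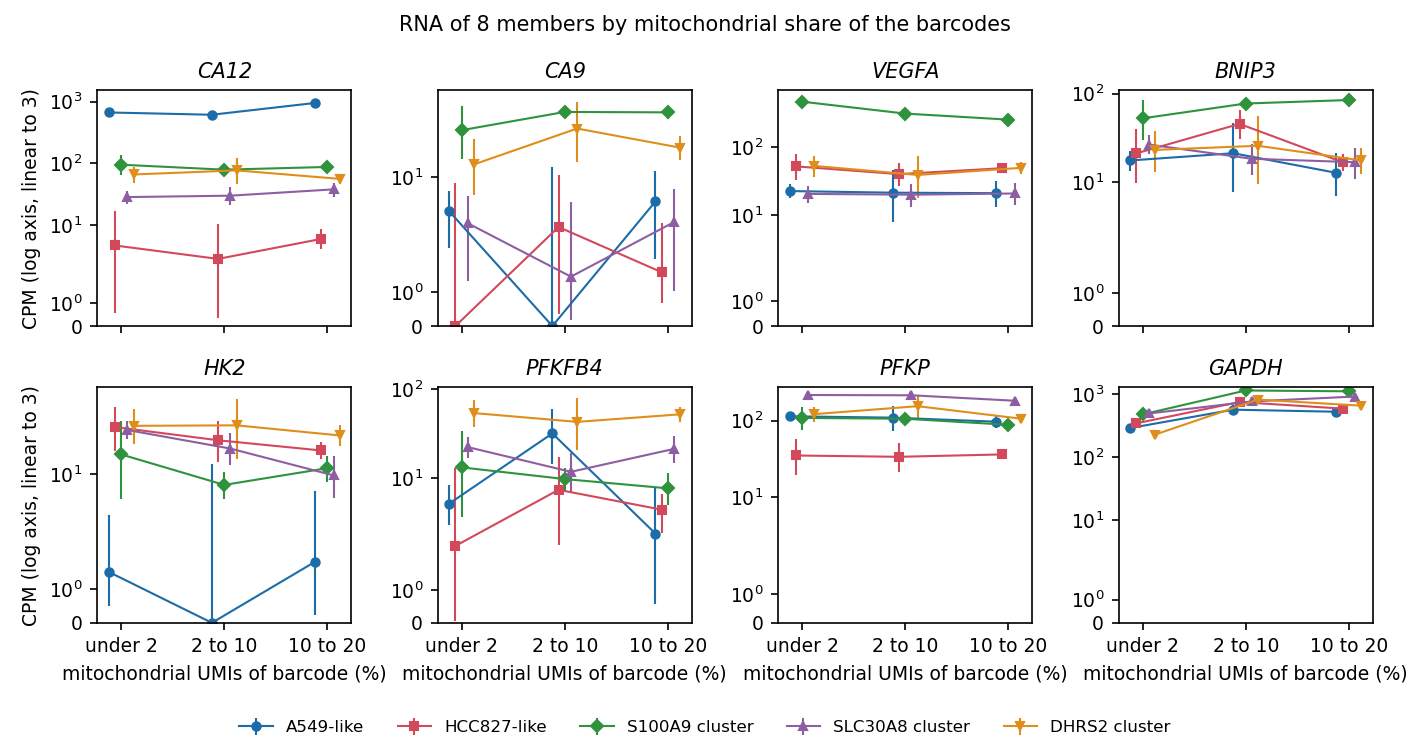
RNA level (CPM, log axis that is linear up to 3) of 8 members in barcodes of 3 ranges of mitochondrial share, for the 5 lines, with exact Poisson 95% intervals. CA12 in A549-like cells and VEGFA in the S100A9 cluster stay above the other lines in every range, while GAPDH in A549-like cells has 292 CPM in the lowest range and 571 in the middle one.

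Among the regulators of the pathway, HIF1A was at 862 CPM in the S100A9 cluster, 752 in the DHRS2 cluster, 511 in A549-like and 446 in HCC827-like cells, and at 202 CPM in the SLC30A8 cluster, where it was called lower at a log2 ratio of -1.66. An antisense gene, HIF1A-AS3, overlaps it and was lowest in the same cluster at a log2 ratio of -1.97, and reads of the pair cannot be told apart without strand. EPAS1 (HIF2A) was at 148 CPM in A549-like cells, against 83.3 in the DHRS2 cluster, 65.7 in the SLC30A8 cluster, 57.7 in the S100A9 cluster and 42.8 in HCC827-like cells. ARNT, the shared partner, was at 178 CPM in the SLC30A8 cluster, against 85.2 in the DHRS2 cluster, 76.2 in A549-like cells, 61.4 in the S100A9 cluster and 45.1 in HCC827-like cells. ARNT2, its paralog, was at 49.6 CPM in A549-like cells and 21.2 CPM in the S100A9 cluster, against at most 5.11 CPM in the other lines. CITED2, which competes with HIF for its coactivator, was at 2.55 CPM in A549-like cells, against 11.3 to 19.8 CPM elsewhere. VHL ranged between 23.3 and 50.5 CPM and HIF1AN, the asparagine hydroxylase of HIF, between 16.3 and 27.9 CPM, with no call. EGLN2 was at 2.25 CPM in the DHRS2 cluster, where it was called lower, against 5.39 to 15.7 CPM in the other lines.

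Of 34 other measured hypoxia-induced genes, 7 were higher and 2 lower in the S100A9 cluster, none was higher and 13 lower in HCC827-like cells, and 4 were higher and 15 lower in A549-like cells. The SLC30A8 cluster had 1 higher and 10 lower, and the DHRS2 cluster 4 higher and 7 lower. Over all genes, in the same order of lines, 9.78%, 6.82%, 11.7%, 12.7% and 7.47% were higher and 20.1%, 19.2%, 17.6%, 20.9% and 16.8% lower. IGFBP3, which binds insulin-like growth factors, was at 2387 CPM in the S100A9 cluster, against 203 CPM in HCC827-like and 178 in A549-like cells, 42.4 in the DHRS2 cluster and 24.8 in the SLC30A8 cluster. STC2, a stanniocalcin, was at 611 CPM in the S100A9 cluster, against 9.49 to 85.6 CPM in the other lines. LOX, which crosslinks collagen, was at 158 CPM in the S100A9 cluster and 78.8 CPM in the DHRS2 cluster, against at most 8.51 CPM in the other 3. RORA, a nuclear receptor, was at 1.61 CPM in the DHRS2 cluster, against 157 to 425 CPM elsewhere.

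Of 34 other measured glycolysis and pyruvate genes, 6 were higher and 6 lower in the S100A9 cluster, 3 and 6 in HCC827-like cells, 5 and 8 in A549-like cells, 4 and 12 in the SLC30A8 cluster and 3 and 6 in the DHRS2 cluster. Over all genes, in the same order of lines, 9.78%, 6.82%, 11.7%, 12.7% and 7.47% were higher. Lower were 20.1%, 19.2%, 17.6%, 20.9% and 16.8% of all genes in that order. The 6 lower of 34 in the S100A9 cluster, HCC827-like cells and the DHRS2 cluster are near this background. PDK4, a sister of PDK1, was at 130 CPM in A549-like cells, against at most 6.97 CPM elsewhere, so the 2 kinases had opposite calls there. SLC16A7, a high-affinity monocarboxylate carrier, was at 3.83 CPM in A549-like cells, against 162 in the S100A9 cluster, 130 in HCC827-like cells, 28.3 in the SLC30A8 cluster and 16.4 in the DHRS2 cluster. In the SLC30A8 cluster PDK3 was at 1.82 CPM, against 34.0 to 39.8 CPM elsewhere, and PC, which makes oxaloacetate from pyruvate, at 175 CPM, against 12.4 to 42.4 CPM. SLC2A10, a further glucose transporter, had no UMI in A549-like cells, against 18.9 CPM in the S100A9 cluster, 13.1 in HCC827-like cells, 2.01 in the SLC30A8 cluster and 0.643 in the DHRS2 cluster.

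In accessibility the S100A9 cluster was not ahead at the members. Of the 95 measured member peaks, 5 were higher and 9 lower in the S100A9 cluster, where 12.1% and 12.7% of all 37463 measured peaks near gene rows were higher and lower. In HCC827-like cells 5 were higher and 20 lower, beside 8.48% and 15.2% of peaks near genes. In A549-like cells 12 were higher and 7 lower, beside 8.98% and 22.7%. The SLC30A8 cluster had 6 and 10, beside 8.13% and 22.2%, and the DHRS2 cluster 4 and 13, beside 8.3% and 17.0%. The 110 member peaks, measured or not, are spread unevenly, with 16 at PGK1, 11 at PFKP and 9 at PFKFB3. Peaks of 1 gene share its region, so a few regions weigh heavily in these counts. In HCC827-like cells the regions of PFKP and PFKFB3 were low as a whole, as given below. The median log2 ratio of member peaks was -0.20 in the S100A9 cluster, -0.29 in HCC827-like cells, 0.28 in A549-like cells, 0.06 in the SLC30A8 cluster and -0.30 in the DHRS2 cluster, beside -0.05, -0.18, -0.07, -0.16 and -0.22 in the same order over all peaks near gene rows. With the peaks of a member summed, the line with the most accessibility was the line with the most RNA for 12 of 36 members (33.3%), and for 48.5% of the 17071 measured genes with a peak.

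**Figure D5:**
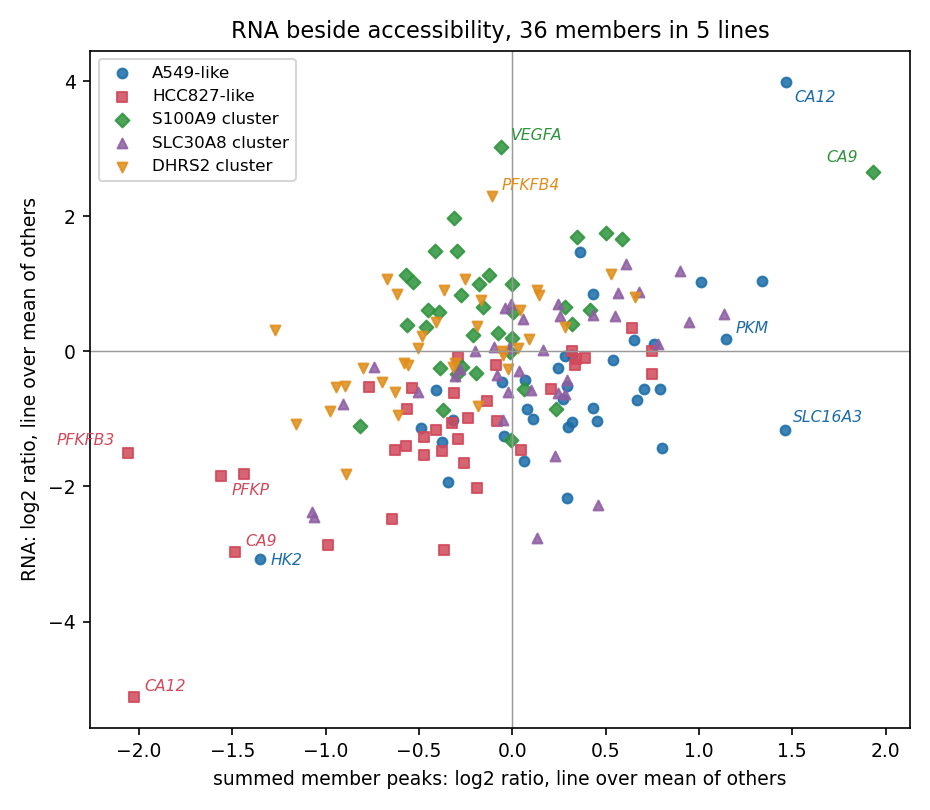
Log2 ratio of a line over the mean of the other 4, of RNA (vertical) against the summed peaks of the member (horizontal), with 1 point for each of 36 members in each of 5 lines. CA12 and CA9 lie far along both axes, VEGFA in the S100A9 cluster is high in RNA at an accessibility ratio near 0, and SLC16A3 in A549-like cells is low in RNA at high accessibility.

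CA9 was a member whose peaks and RNA had the same leader. The peak over its start (chr9:35673334-35674207, GRCh38, holding the CA9 sequence shown above) was at 9.33 CPM of all peak counts of the line (interval 7.55 to 11.4) in the S100A9 cluster, against 4.85 in A549-like cells, 3.13 in the DHRS2 cluster, 2.34 in the SLC30A8 cluster and 0.780 in HCC827-like cells. A neighbouring peak 1607 bases from the row (chr9:35675535-35676378) was at 9.53 in the S100A9 cluster, against 0.854 to 2.32 in the other lines. The start peak of CA12 (chr15:63381446-63382344) was at 23.5 CPM in A549-like cells, against 11.9 in the SLC30A8 cluster, 11.0 in the S100A9 cluster, 6.13 in the DHRS2 cluster and 2.47 in HCC827-like cells. All measured peaks within 1 Mb of CA12 had a log2 ratio of 1.01 in A549-like cells, beside 1.47 at the peak itself. Both HK2 start peaks were low in A549-like cells: 12.7 at chr2:74833536-74834436, against 26.8 to 40.7 in the other lines, and 3.59 at chr2:74834954-74835787, against 8.64 to 21.1. The second of these overlaps the HK2 sequence shown above, and the peaks within 1 Mb of HK2 had a log2 ratio of 0.31 in that line.

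VEGFA and PFKFB4 were the reverse case. The peak with most counts at VEGFA (chr6:43769585-43770434) was at 29.9 CPM in the S100A9 cluster, against 41.5 in the SLC30A8 cluster, 36.03 in A549-like cells, 23.9 in HCC827-like cells and 21.9 in the DHRS2 cluster, a log2 ratio of -0.05 where the RNA had 3.03. The start peak of PFKFB4 (chr3:48556565-48557476) was at 66.6 in the DHRS2 cluster, against 109 in the SLC30A8 cluster, 69.5 in A549-like, 66.3 in HCC827-like cells and 43.1 in the S100A9 cluster. At SLC16A3 the peak at chr17:82231716-82232535 was at 59.7 in A549-like cells, against 19.2 in the S100A9 cluster, 15.9 in HCC827-like cells, 6.27 in the SLC30A8 cluster and 2.73 in the DHRS2 cluster, while its RNA was called lower in A549-like cells, with an interval that overlaps that of HCC827-like cells. The peak with the largest single ratio was in PFKP (chr10:3102711-3103605), at 13.7 in A549-like cells, against at most 2.43 in the other lines, a log2 ratio of 2.84. PFKP RNA in A549-like cells had a log2 ratio of -0.05. LDHA and EGLN1, whose promoters are shown above, had start peaks past 2-fold in no line, at 35.0 to 50.9 and 47.2 to 67.4 CPM. A stronger peak over another LDHA start (chr11:18395705-18396621) was at 74.3 CPM in A549-like cells, a log2 ratio of 0.92. The window at that start holds no ACGTG and 1 GCGTG, on the reverse strand.

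Of the 31 members past 2-fold in RNA, 12 had a strongest peak (the one with most counts) past 2-fold in some line and 19 did not. Over all genes past 2-fold in RNA with a measured peak, the share was 54.7%. The strongest peaks of CA9, CA12 and HK2 are given above and that of GPI below. At SLC16A3 (chr17:82230585-82231430) it was at 69.2 CPM in A549-like cells, against 16.5 to 32.1 in the other lines. In HCC827-like cells it was at 12.3 CPM at PFKFB3 (chr10:6202546-6203330), against 27.1 to 83.8 in the other lines, and at 10.7 CPM at PFKP (chr10:3095234-3096126), against 18.4 to 36.1. The remaining ones were ADM at chr11:10304519-10305409, with 60.96 CPM in A549-like cells, against 16.9 to 33.2 in the other lines, and PKM at chr15:72230974-72231826, with 115 in A549-like cells, against 33.8 to 70.5. ENO1 had 95.8 at chr1:8878503-8879412 in the SLC30A8 cluster, against 28.6 to 45.9 elsewhere. Lower ones were SLC2A3 at chr12:7935870-7936777, with 7.67 in HCC827-like cells, against 14.4 to 23.3, and ENO2 at chr12:6914061-6914972, with 8.04 in the DHRS2 cluster, against 9.62 to 23.0. In RNA the line singled out by the peak had a log2 ratio of -2.86 for SLC2A3, 1.03 for ADM, 0.44 for ENO1, 0.18 for PKM and -0.52 for ENO2. The 8 largest ratios of single peaks were at PFKP, SLC16A3, CA9, CA12 and PGK1, with 1 each, and at PFKFB3, with 3, where HCC827-like cells had 0.260 to 3.51 CPM and the A549-like line 2.65 to 25.4. The PGK1 peak (chrX:77937046-77937948) was at 0.251 CPM in the SLC30A8 cluster, against 2.95 to 5.46, and lies in a long row that also takes in ATP7A.

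At some members the ratio of the whole region was large. Measured peaks within 1 Mb of PFKP and of PFKFB3, both on the short arm of chromosome 10, had log2 ratios of -1.40 and -1.40 in HCC827-like cells, where the RNA of the genes had -1.85 and -1.50. Around PFKP the SLC30A8 cluster had 1.29, beside 1.19 in RNA. Around PKM the A549-like line had 1.21, beside 1.31 at the strongest PKM peak and 0.18 in RNA. Around GPI the A549-like line had 1.16 and the HCC827-like line -0.82, beside 1.04 and -1.82 in RNA, and the GPI start peak (chr19:34364699-34365566) was at 49.4 CPM in A549-like cells, against 10.0 to 28.8 in the other lines. Of the 20 lower members of HCC827-like cells, 5 lay in regions at a log2 ratio of -0.5 or less. A549-like cells had 1 of 14, the S100A9 cluster 1 of 2, the SLC30A8 cluster 0 of 6 and the DHRS2 cluster 1 of 2. Of the 11 higher members of the S100A9 cluster, 1 lay in a region at 0.5 or more. A549-like cells had 2 of 4, the SLC30A8 cluster 1 of 2 and the DHRS2 cluster 0 of 4. The same shares over all genes were not computed. Copy number was not measured, and its part in these values was not tested. With the ratio of the region within 1 Mb taken off each peak, HCC827-like cells had 7 lower peaks in place of 20 and A549-like cells 6 higher in place of 12. The share of all peaks called in this way was not computed.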

How the data were processed

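RNA and ATAC libraries of 1 capture were deposited by the authors as 1 matrix of whole-number counts: UMIs per gene, and counts per peak whose definition (cut sites or fragments) the files do not state. Cell Ranger ARC 2.0.0 and GRCh38 stand in the submitters' processing notes. Annotation, peak calling, barcode calling and the handling of introns and strand were not stated. Of 3298 barcodes, 2804 had at least 1000 UMIs, 500 genes and 1000 peak counts and at most 20% mitochondrial UMIs. The 63 with the highest Scrublet scores were removed as doublets at the expected rate, since its automatic threshold called 1. Leiden clustering (scanpy 1.11.5, 30 components, 20 neighbours, resolution 0.1) was run on each readout. Matched barcodes had medians of 7692 UMIs and 22373 peak counts. Counts were summed per line. Of nonzero peak entries 83.3% were even, so peak counts were divided by 2 for intervals. The ratios were checked on simulated data, and no model was fitted. edgeR 4.0.16 gave TMM factors as an alternative. The closing section gives 18 alternatives' effects. Members and lists were chosen with earlier results of these data known. Values are given for members past 2-fold in a line, pathway genes past 4-fold (at most 5 a list) or core regulators, and peaks with the 8 largest ratios or the most counts of a member. Of these, 1 pathway gene that the rule names is not reported here.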

Additional observations from a re-analysis of the deposited data

How the results depend on the processing

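Each result was recomputed under single changes of the processing. The share of all genes or peaks called under each change was not computed, so the counts in this section have no background beside them. The HCC827-like line had 16 to 21 lower members and 0 higher, and the S100A9 cluster 9 to 13 higher. Of 909 alternative values of the 65 single calls, 797 were past 2-fold. The changes below moved a count by over 1.5 times or a median beyond its spread, and the cause was not tested unless the setting itself gives it. No paired analysis was possible because each line was cultured and captured once.

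With barcodes assigned by ATAC alone, which adds barcodes of mixed markers, the A549-like line had 2 members higher and 1 lower at a median of -0.30, 1 higher HIF system gene, 2 lower other hypoxia genes, and 2 higher and 3 lower other glycolysis genes. The DHRS2 cluster then had 1 member higher and 0 lower at a median of 0.28, 0 lower HIF system and hypoxia genes, 1 lower glycolysis gene and 3 lower member peaks. The S100A9 cluster had 1 lower member, and HCC827-like cells 1 higher glycolysis gene. By RNA alone the S100A9 cluster had 0 lower members and hypoxia genes, 2 lower peaks and a median of 0.45, with PFKFB4 reversed at 0.18, and the SLC30A8 cluster 2 higher HIF system genes.

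At most 5% mitochondrial UMIs gave 2 members higher and 4 lower and 0 higher glycolysis genes in the DHRS2 cluster, 2 higher HIF system genes in the S100A9 and in the SLC30A8 cluster, 2 higher hypoxia genes in the SLC30A8 cluster and in HCC827-like cells, 3 higher peaks in HCC827-like and 4 lower in A549-like cells. Without a mitochondrial limit the DHRS2 cluster had 1 member higher, 1 lower and 4 lower peaks, and the S100A9 cluster 1 lower member, 1 lower hypoxia gene and 5 lower peaks. Without the 10% of barcodes with most UMIs the S100A9 cluster had 4 lower hypoxia genes and the DHRS2 cluster 1 higher HIF system gene.

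TMM scaling moved the median of all genes by -0.11 in the A549-like line and 0.16 in the HCC827-like line and that of peaks by 0.12 in the A549-like line, and gave 2 higher members in the A549-like line and in the DHRS2 cluster, 1 lower member and 1 higher HIF system gene in the S100A9 cluster, and 1 lower HIF system gene in HCC827-like cells. Totals without mitochondrial genes gave 2 higher members in A549-like cells. Means over barcodes gave 1 higher HIF system and 1 higher glycolysis gene in the DHRS2 cluster and 12 lower peaks in A549-like cells. Against the median of the other lines the A549-like line had 9 lower members, the S100A9 cluster 1 at a median of 0.73, with 2 higher HIF system genes, and the DHRS2 cluster 1 at 0.32, with 7 higher glycolysis genes and 8 higher peaks. The SLC30A8 cluster had a median of 0.0795 and 10 higher peaks, and HCC827-like cells 1 lower HIF system and 1 higher hypoxia gene. CA12 reversed to 0.85 in the S100A9 cluster and 0.0608 in the DHRS2 cluster.

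A pseudocount of 5 CPM, which shrinks low features, gave 2 higher and 9 lower members and 3 higher glycolysis genes in A549-like cells, 2 higher members in the DHRS2 cluster, 1 lower member at a median of 0.46 and 3 lower glycolysis genes in the S100A9 cluster, and 7 lower glycolysis genes in the SLC30A8 cluster. Its lower peaks were 2 in A549-like, 9 in HCC827-like cells, 0 in the S100A9, 1 in the SLC30A8 and 1 in the DHRS2 cluster, and its higher ones 2 in HCC827-like cells, 1 in the S100A9 and 1 in the DHRS2 cluster. A minimum of 200 UMIs gave 3 higher glycolysis genes in A549-like cells, 3 lower in the S100A9 and 1 higher in the DHRS2 cluster. Binarised peaks gave 3 higher in HCC827-like cells. Peaks overlapping the row gave 4 lower in A549-like cells and 3 higher in the S100A9 cluster. Less the region within 1 Mb, A549-like cells had 6 higher and 14 lower peaks at a median of 0.0456, HCC827-like cells 3 and 7, the SLC30A8 cluster 1 higher and the DHRS2 cluster 6 lower. Low counts limit ALDOA, ALDOC and CA9 outside its leading lines.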

Other observations

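Barcodes over the limit of 20% mitochondrial UMIs were used in no comparison above. When 353 of them were placed in the line whose accessibility profile they correlated with best, the 192 HCC827-like ones had 18 members 2-fold lower and none higher against the other lines of such barcodes. The 21 of the S100A9 cluster, with a median of 149352 UMIs, had 7 members higher and 1 lower. The 52 A549-like ones had 3 higher and 11 lower. The comparison lines include the SLC30A8 cluster with only 8 such barcodes. The share of all genes called among these barcodes was not computed, so the counts have no background beside them.

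The 314 barcodes whose 2 clusterings named different lines had levels between those of the lines: CA12 at 129 CPM, VEGFA at 136 CPM, CA9 at 36.05 CPM and HK2 at 16.4 CPM, at a median of 43760 UMIs.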
